A study of Mus musculus with 3 samples.

Results

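Col14a1, Pcolce2, Cmbl, Mrap, Asb2, Adamdec1, Cela1 and Fcna are 8 genes, of 18193 with a probe set of their own on the array, that were chosen by their levels on the same 3 arrays as strongly higher in red pulp macrophages than in spleen monocytes. They have 11 probe sets in all. The choice had no stated numerical limit, so the values are a description and none was tested. Their working name, late macrophage genes not started in monocytes, is met by the levels of 4 of the 8, Col14a1, Pcolce2, Cmbl and Mrap, which were near background in both monocyte populations. Asb2, Adamdec1 and Fcna were already at least 4-fold higher in Spic+ than in Spic- monocytes, and Cela1 was level between the monocytes but above background in both.

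The study measured 3 groups of 1 Affymetrix array each, all sorted from spleens of adult Spic(igfp/+) mice, in which 1 Spic allele carries a green fluorescent reporter. Spic- (Spic-negative) and Spic+ (Spic-positive) monocytes were CD11b+ Ly6C+ cells without and with the reporter's signal, and red pulp macrophages were high in F4/80, a macrophage surface protein, and in the reporter. Every group carries the reporter allele, there is no wild-type or Spic-deficient group, and the labels do not say how many animals stand behind an array. With 1 array a group there is no spread between animals and no p-value.

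Red pulp macrophages live in the blood-filled cords of the spleen, where they engulf old red blood cells, break down heme and return the iron. Spic is a transcription factor that these macrophages need, and monocytes that switch Spic on can give rise to them. The 8 genes belong to no single pathway: Fcna encodes ficolin A, a lectin that starts complement, Col14a1 and Pcolce2 belong to the collagen matrix, Adamdec1 and Cela1 are secreted proteases, Asb2 is part of a ubiquitin ligase, Cmbl is a hydrolase and Mrap helps a hormone receptor reach the cell surface.

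Sequence is shown first because the genes split by their level in Spic+ monocytes, and the promoters can be read beside that split. RefSeq promoters of the GRCm38.p6 assembly were found for 5 of the 8 genes (Fcna, Asb2, Cela1, Cmbl and Pcolce2), with 2 starts for Asb2, which makes 6 windows. The windows of Fcna and Cmbl lie inside the annotated gene spans, chr2:25624665-25635440 and chr15:31565342-31590119. The outermost start of these 2 genes was therefore not searched. The 250 bases before each start were searched on both strands for 6 short motifs. The PU box, searched as GAGGAA, is bound by PU.1 and its relative SPIC. The MAF element core was searched as TGCTGA. The E box was searched as CACGTG. The AP-1 site was searched as TGANTCA. The nuclear receptor element core was searched as AGGTCA. The TATA box was searched as TATAAA. The windows run 5′ to 3′ on the gene's strand, and capitals mark every match, with overlapping or adjoining matches run together.
Fcna, chr2:25627975-25628224, minus strand: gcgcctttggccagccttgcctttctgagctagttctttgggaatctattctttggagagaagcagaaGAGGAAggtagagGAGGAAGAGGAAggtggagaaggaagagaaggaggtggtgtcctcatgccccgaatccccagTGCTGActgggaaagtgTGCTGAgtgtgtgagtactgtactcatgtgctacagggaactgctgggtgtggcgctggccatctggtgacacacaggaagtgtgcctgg
Asb2 first start, chr12:103356002-103356251, minus strand: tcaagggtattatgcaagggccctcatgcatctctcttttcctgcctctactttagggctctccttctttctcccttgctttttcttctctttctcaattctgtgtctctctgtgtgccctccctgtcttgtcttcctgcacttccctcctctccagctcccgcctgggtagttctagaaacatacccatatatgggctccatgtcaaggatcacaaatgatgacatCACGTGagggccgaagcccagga
Asb2 second start, chr12:103338391-103338640, minus strand: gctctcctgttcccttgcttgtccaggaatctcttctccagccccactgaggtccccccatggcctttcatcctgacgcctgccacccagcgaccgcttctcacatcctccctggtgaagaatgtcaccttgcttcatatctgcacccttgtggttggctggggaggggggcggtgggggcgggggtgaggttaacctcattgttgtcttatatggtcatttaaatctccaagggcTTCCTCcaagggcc
Cela1, chr15:100687921-100688170, minus strand: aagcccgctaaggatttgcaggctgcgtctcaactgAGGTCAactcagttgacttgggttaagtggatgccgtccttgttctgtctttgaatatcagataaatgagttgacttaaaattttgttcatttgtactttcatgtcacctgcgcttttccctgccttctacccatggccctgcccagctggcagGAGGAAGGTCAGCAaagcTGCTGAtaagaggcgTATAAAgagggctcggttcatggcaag

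Fcna held 3 PU boxes, at bases -182, -169 and -163 from the start, and 2 MAF element cores at -107 and -90. Asb2 held an E box at -23 of its first start and a PU box on the opposite strand at -14 of its second. Cela1 held a PU box at -60, MAF element cores at -52 and -42, nuclear receptor cores at -214 and -55 and a TATA box at -27, and the receptor core at -55 overlaps both the PU box and the first MAF core. The windows of Cmbl and Pcolce2 held none of the 6 motifs and are not printed. Of all 32851 promoter windows of this length, 23.3% held the PU box, 16.1% the MAF core, 6.02% the E box, 14.0% the nuclear receptor core, 12.4% the TATA box and 6.75% the AP-1 site. The PU box was in 3 of the 6 windows: those of Fcna and of the second Asb2 start, genes that were higher in Spic+ monocytes, and that of Cela1, which was level between the monocytes. A match is a run of letters and does not show binding.

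Levels are log2 expression from RMA, so a difference of 1 is 2-fold. Levels at or below log2 5.02, the median of all probe sets, were taken as near background, and this limit is called the floor. As a second gauge, 77 probe sets for odour and pheromone receptors of the nose had 95th percentiles of 5.08, 5.06 and 4.97 on the Spic- monocyte, Spic+ monocyte and macrophage arrays, which is also the order of all triplets of levels below. Of 12375 genes above the floor on at least 1 array, 88.5% were above it in Spic- and 92.4% in Spic+ monocytes. Among the 8 genes the counts were 2 (Cela1 and Fcna) and 4 (Asb2 and Adamdec1 as well), and the receptor limit gave the same counts.

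All 8 genes were at least 16-fold higher in macrophages than on either monocyte array. They were picked as strongly higher in macrophages, without a stated limit, so a large difference was given by the choice. Against Spic- monocytes the differences ran from 6.30 to 8.37 with a median of 7.15, and against Spic+ monocytes from 4.32 to 7.85 with a median of 6.19. The medians of all 12375 genes were 0.03 and 0.10. At 4-fold, 7.38% of all genes were higher in the first comparison and 7.22% in the second, beside 8 of 8 members in each, a count that the choice of members fixes. In such bulk samples fewer cells of a type and less RNA per cell cannot be told apart.

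**Figure D1:**
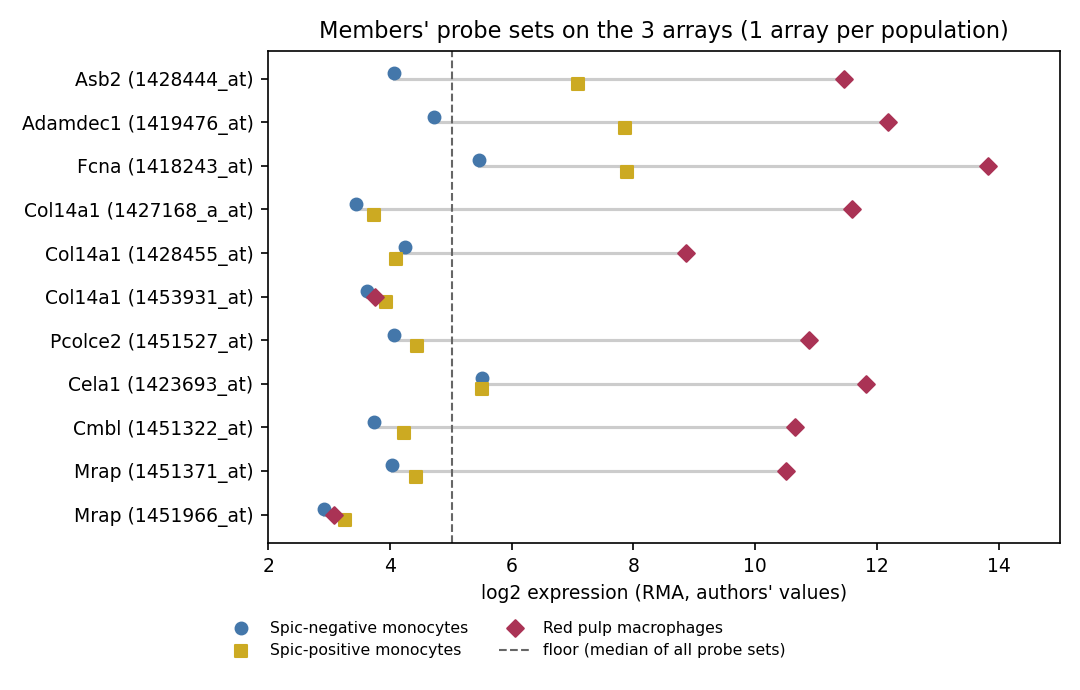
Levels (log2 expression) of the 11 probe sets of the 8 genes on the 3 arrays, 1 symbol per array, with the floor of 5.02 drawn as a line. For Asb2, Adamdec1 and Fcna the Spic-positive symbol lies between the other symbols, while for the rest both monocyte symbols lie together, and 1 probe set each of Col14a1 and Mrap is below the floor on all 3 arrays.

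Fcna, the complement-starting lectin on chromosome 2, measured 5.46, 7.90 and 13.82. It was above the floor on every array. Spic+ monocytes exceeded Spic- monocytes by 5.44-fold, and macrophages exceeded Spic+ monocytes by 60.6-fold. In Spic- monocytes its level was within the upper range of the nose receptors, of which 2 probe sets were brighter.

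Adamdec1, a secreted metalloprotease gene on chromosome 14, measured 4.72, 7.86 and 12.17. It was below the floor in Spic- monocytes only, so Spic+ monocytes were at least 7.14-fold higher when counted from the floor, and macrophages were a further 19.9-fold higher. Asb2, on chromosome 12, measured 4.08, 7.10 and 11.45. It had the same order as Adamdec1, with Spic+ monocytes at least 4.21-fold above Spic- monocytes counted from the floor and macrophages 20.5-fold above Spic+ monocytes.

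On the measured values these steps between the monocyte arrays were 2.44 for Fcna, 3.14 for Adamdec1 and 3.02 for Asb2. Of all genes, 3.49% were at least 2-fold and 0.663% at least 4-fold higher in Spic+ monocytes, and 3 of the 8 genes passed both limits. The working name was given with these levels known, so nothing is read from that count. The median of the 8 was 0.45 and that of all genes -0.06. On the Spic+ array 18 spiked-in hybridization controls were also brighter, by a median of 2.16, and 11 of 12 B cell markers were at least 2-fold higher (median 1.61, and 9 counted from the floor), although cells bearing the B cell protein B220 had been depleted before the monocyte sort. Some dendritic cell markers were raised on that array too. Among the 9 that cleared the floor, 3 passed 2-fold over Spic- monocytes (2 counted from the floor). The other 6 stayed within 2-fold, and the median was 0.65. Ccr7 rose by 4.05, from 5.85 to 9.90, and Itgax by 3.14, from 7.27 to 10.41. The part of the control signal, B cell RNA and dendritic cell RNA in the levels of Fcna, Adamdec1 and Asb2 was not tested.

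Col14a1, the fibril-surface collagen gene on chromosome 15, measured 3.45, 3.74 and 11.59 on its brightest probe set. Only the macrophage array was above the floor, and it was at least 95.1-fold higher than the monocytes counted from the floor. Pcolce2, on chromosome 9, encodes an enhancer of procollagen trimming and measured 4.07, 4.45 and 10.89. Again the macrophage array stood alone, at least 58.3-fold above the floor.

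Cmbl, the hydrolase gene on chromosome 15, measured 3.73, 4.23 and 10.65, which puts macrophages at least 49.4-fold above the floor. Mrap, the receptor accessory gene on chromosome 16, measured 4.03, 4.44 and 10.51 on its brighter probe set, at least 44.9-fold above the floor in macrophages. Col14a1, Pcolce2, Cmbl and Mrap were thus below the floor on both monocyte arrays. Their differences between those arrays, from 0.29 for Col14a1 to 0.49 for Cmbl, lie among values near background and give no order.

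Cela1, the elastase gene on chromosome 15, measured 5.52, 5.51 and 11.82. It was level between the monocyte arrays but above the floor on both, where 2 and 3 of the nose receptor probe sets were brighter still. Macrophages were 78.7-fold higher than Spic- monocytes and 79-fold higher than Spic+ monocytes.

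Of the 8 genes, 6 have 1 probe set, Mrap has 2 and Col14a1 has 3. The second Col14a1 probe set measured 4.25, 4.10 and 8.86, a difference of 4.61 from Spic- monocytes where the brightest gave 8.15. The third Col14a1 probe set measured 3.62, 3.93 and 3.75, and the second Mrap probe set 2.92, 3.26 and 3.08. Both stayed below the floor throughout, so they show no step. Averaging a gene's probe sets lowered the difference between macrophages and Spic- monocytes to 4.30 for Col14a1 and 3.32 for Mrap, and that from Spic+ monocytes to 4.15 and 2.95. The sizes for these genes depend on the probe set. Each Col14a1 or Mrap probe set that passed the floor did so on the macrophage array alone. Which array was highest on those probe sets therefore follows from the floor.

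**Figure D2:**
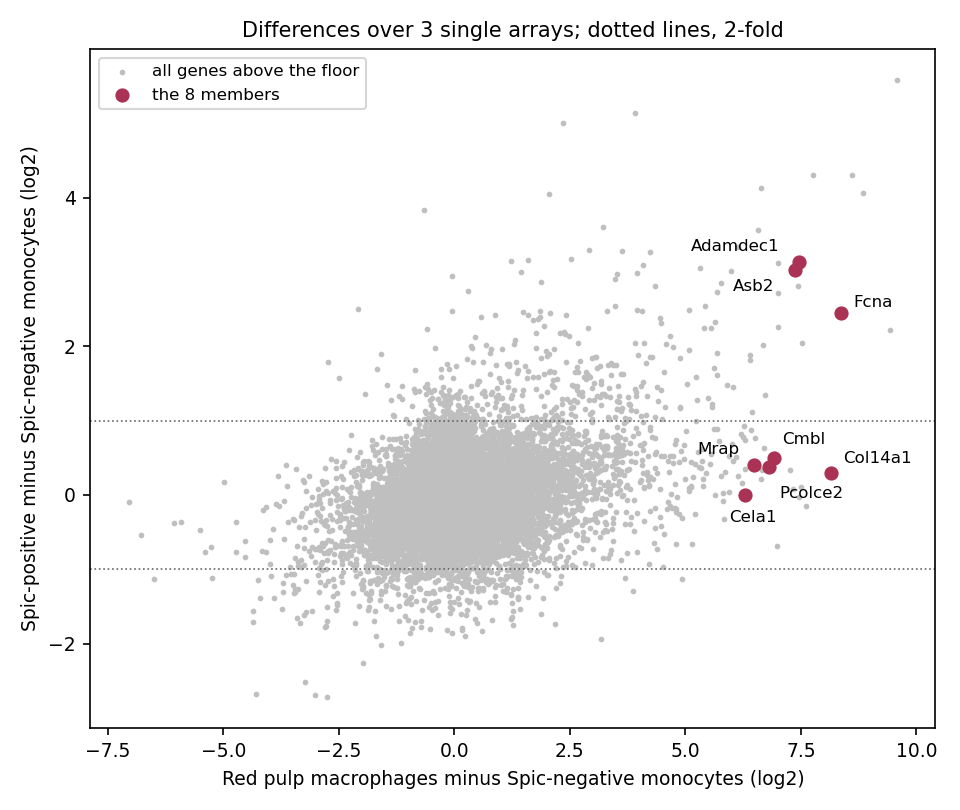
Each point is 1 of the 12375 genes above the floor, placed by macrophages minus Spic-negative monocytes (horizontal, log2) and Spic-positive minus Spic-negative monocytes (vertical, log2), with the 8 genes labelled; both axes share the Spic-negative array. Fcna, Asb2 and Adamdec1 lie between 2.44 and 3.14 on the vertical axis, and the other 5 lie between -0.00 and 0.49.

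A difference of 16-fold or more over both monocyte arrays, as measured, was reached in macrophages by 125 genes, or 1.01% of the 12375. Of these, 20 genes (16%) were at least 2-fold higher in Spic+ than in Spic- monocytes and above the floor there, among them Fcna, Adamdec1 and Asb2. Counted from the floor, Kcnj16 (0.34), Plpp1 (0.86) and Snx24 (0.99) of the 20 miss 2-fold. Another 102 differed by less than 2-fold between the monocyte arrays, among them the other 5 of the 8. Of the remaining genes, Oosp1 and B3galnt1 were higher in Spic+ monocytes without reaching the floor. Gfra2 was more than 2-fold lower there as measured, but by -0.82 counted from the floor, which its Spic+ level did not reach. At or below the floor on both monocyte arrays were 71 of the 125, and 4 of the 8. Counted from the floor, not all of the 125 reach 16-fold, a difference of 4. The 8 genes do, while the collagen gene Col19a1 (2.46) and the collagenase gene Mmp13 (3.42), for instance, do not.

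Of genes known for red pulp macrophages, the class of 20 held 5: the complement genes C1qa and C1qc, the scavenger protein gene Cd5l, the uptake receptor gene Mertk and the iron exporter gene Slc40a1. The class of 102 held 3: the hemoglobin receptor gene Cd163 and the complement-related genes C6 and Vsig4. It also held 8 erythroid markers, while the class of 20 held 0. Of the 8 markers, Rhag (2.25) and Kel (3.07) fall short of 16-fold counted from the floor.

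**Figure D3:**
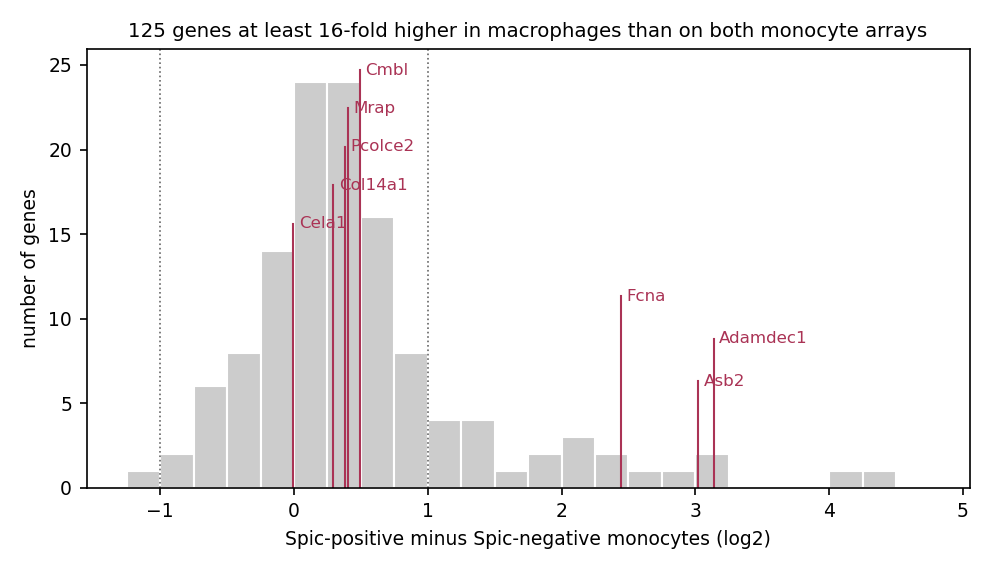
Histogram of Spic-positive minus Spic-negative monocytes (log2, horizontal) for the 125 genes at least 16-fold higher in macrophages than on both monocyte arrays, with the number of genes on the vertical axis and the 8 genes marked. Cela1, Col14a1, Pcolce2, Mrap and Cmbl fall in the main peak, and Fcna, Asb2 and Adamdec1 in the tail from 2.44 to 3.14. Differences are as measured, also where monocytes are below the floor.

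The genes most like the 8 were those with the smallest distance, over the 3 arrays, between their own pair of differences (macrophages and Spic+ monocytes, each minus Spic- monocytes) and the median pair of the 8. The immunoglobulin gene Ighg3 came first, at a distance of 0.16, and then Xist (0.41), Samd4 (0.49), Clec1b (0.49) and the carbonic anhydrase gene Car2 (0.50). The next 5 were C6 (0.56), Slc4a1, the band 3 protein of red cells (0.57), Ccr3 (0.71), the erythroid gene Hemgn (0.75) and the prion protein gene Prnp (0.84). Taken singly, Asb2 and Adamdec1 both lay nearest to Mertk, at 0.21 and 0.32, and Mertk measured 5.27, 8.09 and 12.70. Fcna lay nearest to the scavenger receptor gene Stab2 (0.94), Cela1 to the gap junction gene Gja1 (0.18) and Col14a1 to Car2 (0.67). Pcolce2 and Mrap were nearest to Clec1b (0.15 and 0.20) and Cmbl to Samd4 (0.26). Where monocyte levels are below the floor these distances rest in part on background.

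Genes that work with each member, or belong to its family, were read from lists chosen with earlier results known. As background, 19.6% of all genes were at least 2-fold higher and 11.3% lower in macrophages than in Spic- monocytes, 22.0% were higher than in Spic+ monocytes, and 3.06% were 2-fold lower in Spic+ than in Spic- monocytes. Many of the list genes were below the floor in monocytes, so a difference from the floor, with any level below it set to it, is given where the count or an order would change.

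Of 11 lectin pathway genes beside Fcna, 7 were above the floor, with 3 higher and 1 lower in macrophages than in Spic- monocytes, and 2 and 0 counted from the floor. The list's median was -0.05, but 1.43 with probe sets averaged and 3.36 with a floor at the 75th percentile. The other mouse ficolin gene, Fcnb, measured 7.22, 8.68 and 6.59, so its highest level was in Spic+ monocytes and not in macrophages. The protease genes of the pathway were not 2-fold higher in macrophages: Masp1 measured 5.34, 5.47 and 5.28, and Masp2 4.86, 5.55 and 4.48. C2, which the proteases cut, measured 5.46, 5.53 and 8.82. Cfp, the gene of properdin, measured 9.15, 8.91 and 12.64. Both stood high in macrophages and level between the monocytes. The genes lost when counted from the floor were Serping1, the C1 inhibitor, at 3.78, 4.35 and 5.20, and the collectin gene Colec12, at 5.10, 4.61 and 2.94.

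Of 22 collagen and procollagen processing genes beside Col14a1 and Pcolce2, 10 were above the floor, and 1 was at least 2-fold higher in macrophages than in Spic- monocytes, with a median of 0.33. That gene was Col19a1, another fibril-associated collagen, at 2.78, 2.60 and 7.48. Its monocyte levels were below the floor, and counted from the floor macrophages were higher by at least 2.46. Among fibril-forming collagens, Col1a1 measured 4.12, 3.81 and 3.40, and Col3a1 2.89, 3.38 and 3.13. Both, and Col5a2, were below the floor throughout, whereas Col5a1 measured 5.08, 5.27 and 5.75, above it on every array. Col1a2 measured 5.02, 5.33 and 5.44, above it in Spic+ monocytes and macrophages, and neither gene reached 2-fold between any arrays. Pcolce, the close relative of Pcolce2, measured 4.37, 5.06 and 5.26. Bmp1, the protease that both enhancers serve, measured 5.79, 5.78 and 6.04. Neither was 2-fold higher in macrophages than in Spic- monocytes.

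Of 15 ADAM family genes beside Adamdec1, 11 were above the floor, with 2 higher and 3 lower in macrophages than in Spic- monocytes and a median of 0.01. The higher ones were Adam22 and Adam23, whose proteins lack protease activity, by at least 2.91 and 2.96 counted from the floor, where Adamdec1 had 7.15. Adam28, a close relative of Adamdec1, was below the floor throughout, at 3.94, 4.08 and 3.64. The lower ones were Adam8 (-1.50), Adam15 (-2.24) and Adam19 (-1.47).

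Of 22 genes for other ASB proteins, ligase partners and filamins, 15 were above the floor, with 2 higher and 2 lower in macrophages than in Spic- monocytes and a median of -0.30. The higher ones were Asb1 (1.07) and the RING subunit gene Rnf7 (1.39). Cul5, the scaffold on which Asb2 works, measured 6.44, 7.93 and 4.99, lowest on the array where Asb2 was highest. The filamin gene Flna, whose protein Asb2 targets, measured 12.06, 11.66 and 10.54. It was the other lower gene, and filamin protein was not measured. The adaptor genes Elob and Eloc differed by -0.30 and 0.63.

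Of 10 elastase and elastin genes beside Cela1, 9 were above the floor and 4 were higher in macrophages than in Spic- monocytes (3 counted from the floor), with a median of 0.26. Cela2a, a pancreatic elastase gene, measured 3.69, 4.13 and 7.19, and Cela3b 6.45, 6.21 and 6.71. Of the other 3, the protease gene Ctsg measured 5.27, 7.31 and 7.95, already higher by 2.05 in Spic+ than in Spic- monocytes. The inhibitor gene Slpi was higher by 1.90, and the elastic fibre gene Fbln5, at 4.17, 3.52 and 5.87, missed 2-fold counted from the floor. The neutrophil elastase gene Elane differed by -0.19.

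Of 12 small hydrolase and esterase genes beside Cmbl, 5 were above the floor, 3 of them at least 2-fold higher in macrophages than in Spic- monocytes and 5 than in Spic+ monocytes, with medians of 2.54 and 1.84 over these 5. Over all 12 without a floor the medians were 0.56 and 0.64. The epoxide hydrolase gene Ephx1 measured 5.67, 6.85 and 11.25, and its step between the monocyte arrays was 1.18, where Cmbl stayed below the floor. The lactonase gene Pon3 measured 5.62, 5.96 and 9.36, and Ephx2 3.92, 4.62 and 6.46. Of 6 melanocortin genes beside Mrap, 3 were above the floor and 0 were 2-fold higher in macrophages than in Spic- monocytes. Mc2r, the ACTH receptor that needs Mrap to reach the surface, measured 3.65, 3.16 and 3.57, below the floor on each array.

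**Figure D4:**
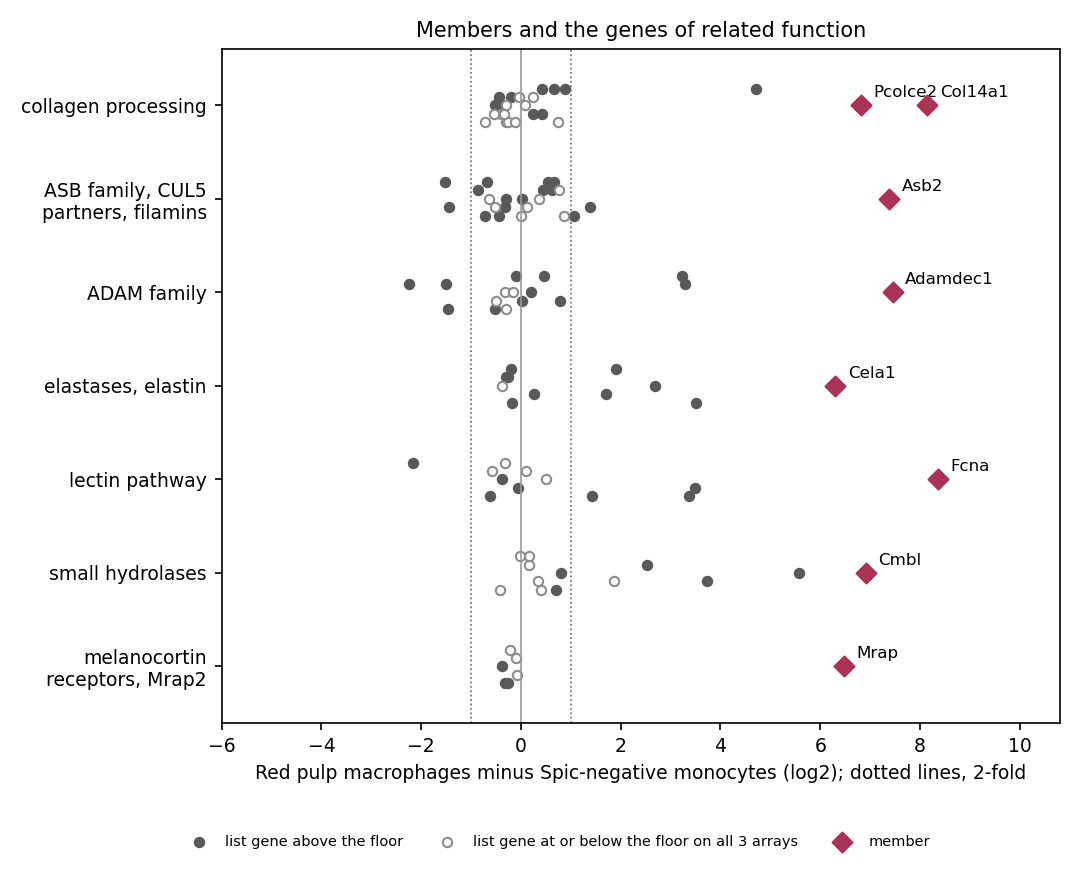
Macrophages minus Spic-negative monocytes (log2, horizontal) for the 8 genes (diamonds) and the genes of each related list (circles, open at or below the floor). Differences are as measured, also where monocytes are below the floor; the members run from Cela1 at 6.30 to Fcna at 8.37.

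Several of the 8 genes are also made by other cell types, and markers of those cells were read on the same arrays. For fibroblasts, which make Col14a1 and Pcolce2, 10 of 15 markers were above the floor, with 3 higher and 1 lower in macrophages than in Spic- monocytes and a median of 0.42. The markers split. Col1a1, Col3a1, Pdgfra, Lum and Dpt were below the floor on all 3 arrays. In macrophages Col1a2 (5.44), Dcn (5.42), Pdgfrb (5.15), Thy1 (5.04) and Tcf21 (5.06) were just above the floor. Acta2 was well above the floor on all 3 arrays and was the brightest marker of the list in macrophages. Its macrophage level differed by -0.56 from Spic- and by 0.07 from Spic+ monocytes. The higher genes were Postn, Cxcl13 and Fap, by 1.60, 1.75 and 1.29 counted from the floor, and the lower one was Pi16, at 10.27, 8.88 and 6.07. The log2 of the list's summed level was 10.83, 9.96 and 9.63, and without Pi16 it was 9.20, 9.04 and 9.51, so that its order rests on that gene. The part of fibroblasts in the Col14a1 and Pcolce2 levels was not tested. For adipocytes and the adrenal cortex, which express Mrap, 3 of 9 markers were above the floor and 0 were 2-fold higher in macrophages than in Spic- monocytes, with Adipoq, Lep, Cidec and Mc2r below the floor on all 3 arrays and a summed level of 8.16, 8.24 and 7.82.

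Pancreatic acinar cells express elastases, and their markers moved with Cela1. Of 10 markers, 9 were above the floor, of which 8 reached 2-fold higher levels in macrophages than in Spic- monocytes, with a median of 1.75, and 7 did so counted from the floor. The carboxypeptidase genes Cpa1 and Cpb1 measured 7.22 and 6.65 in macrophages, at least 2.19 and 1.63 above Spic- monocytes counted from the floor. The colipase gene Clps was below the floor throughout. Cela2a gave at least 2.17 in the same way, where Cela1 had 6.30 with monocytes above the floor, and the log2 of the summed level was 8.52, 8.58 and 10.19. The part of these cells in the Cela1 level was not tested.

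Most red cell precursor markers also moved with the macrophage array, and lymphocyte and endothelial markers did so in part. Of 12 erythroid markers, 10 were above the floor, and 10 of these passed 2-fold in macrophages over each monocyte array, with a median of 4.78 against Spic- monocytes and a summed level (log2) of 8.33, 8.74 and 13.79. Hba-a1, at 3.66, 3.99 and 3.85, and Epb42, at 4.40, 4.01 and 5.01, were below it throughout. Klf1, Slc4a1, Car2, Hemgn, Rhag and Kel passed the floor on the macrophage array alone, so that macrophages were highest for them follows from the floor. Against Spic- monocytes, T and NK cell markers were higher in 6 of 10 (median 1.41), and B cell markers in 6 of 12 (5 counted from the floor). Against Spic+ monocytes, 1 of 12 B cell markers was higher and 4 were lower (3 counted from the floor), with a median of -0.49. The summed level of the B cell list was 11.77, 13.39 and 14.61. Its brightest gene on each array was Ighm, at 11.47, 12.97 and 14.49, so the order of the sum rests largely on that gene. Among 12 endothelial markers, 9 were above the floor. In macrophages 4 were higher and 1 lower than in Spic- monocytes (3 and 1 counted from the floor). In Spic+ monocytes 3 were higher than in Spic- monocytes. Their summed level was 9.08, 9.59 and 12.11, and in macrophages it rests largely on Stab2, at 4.35, 6.39 and 11.86. The arrays also differ in sex-linked genes: Xist measured 4.63, 4.70 and 11.95, and the Y-linked gene Eif2s3y 10.10, 9.56 and 3.31. None of the 8 genes lies on a sex chromosome, and the sex of the mice and the macrophage population cannot be told apart. The part of erythroid, lymphoid and endothelial RNA in the levels of the 8 genes was not tested.

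**Figure D5:**
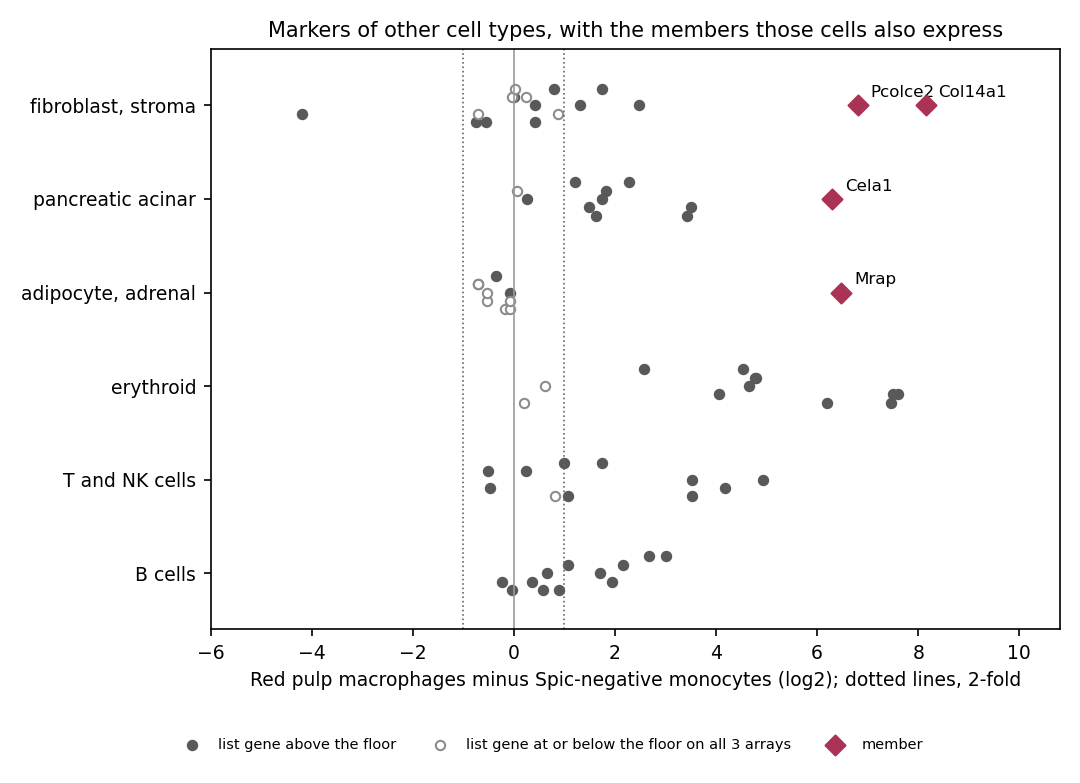
Macrophages minus Spic-negative monocytes (log2, horizontal) for markers of 6 groups of other cells (circles, open at or below the floor), with Col14a1, Pcolce2, Cela1 and Mrap as diamonds beside cells that also express them. Differences are as measured, also where monocytes are below the floor: the acinar row reaches 3.50 (Cela2a) and the erythroid row 7.60 (Hemgn).

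The sorted populations carried the markers of their names, but not those alone. The summed level (log2) of 8 neutrophil markers was 14.92, 15.06 and 14.92, and 7 of them were above the floor in macrophages. The part of neutrophil RNA in the levels of the 8 genes was not tested. Of 9 monocyte markers, 8 were at least 2-fold lower in macrophages than in Spic- monocytes, among them Ccr2 (-5.50). Of 20 genes known for red pulp macrophages, 20 passed 2-fold in macrophages over each monocyte array, and 12 did in Spic+ over Spic- monocytes. That list was chosen with earlier results known, so the counts are a description. Spic itself, whose reporter was used in the sort, measured 5.66, 9.22 and 12.23. Fcna, Adamdec1 and Asb2 had this stepped order. Cd163 measured 4.49, 3.81 and 11.48. Like it, Col14a1, Pcolce2, Cmbl, Mrap and Cela1 stood high on the macrophage array alone. So did the 8 erythroid markers in the class of 102, among them Slc4a1 at 3.86, 3.83 and 11.32.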

How the data were processed

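RNA of the 3 sorted populations was amplified over 2 cycles and hybridised to 1 array each, per the labels' protocols. Deposited by the authors were log2 levels for each probe set, processed with RMA per the submitters' processing notes (version: not given in the sources used here). That the scale is log2 was taken from the values, 1.82 to 14.50. RMA gives all arrays a like distribution, which hides a change in total RNA.

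Of 45037 probe sets other than controls, 34945 had 1 gene symbol in the platform annotation, 932 several and 9160 none. The probe set brightest on average stood for a gene. Genes above log2 5.02 on at least 1 array were compared, and differences were counted at 2-, 4- and 16-fold. A fold marked "at least" was counted from that floor. With 1 array a group no test was run, and the number of arrays limits the precision. Named are the 8 genes, genes of 18 lists by function or cell type, and the genes nearest in pattern; a few others were chosen after their values were seen. Members and lists were chosen with earlier results of these data known. Protein sequences were not used here. Python 3.11.15, numpy 2.4.6, pandas 2.3.3 and limma 3.58.1 (cyclic loess, as an alternative) were used, and the steps were tested on simulated data. Alternatives changed the probe set rule, the scaling and the floor. Differences counted from the floor and the fibroblast sum without Pi16 were added after seeing the data.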

Additional observations from a re-analysis of the deposited data

How the results depend on the processing

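Under the 9 alternatives fixed at the start, all 8 genes stayed at least 4-fold higher in macrophages than on each monocyte array, and 3 of 8 stayed at least 2-fold higher in Spic+ than in Spic- monocytes. The 4 genes above the floor on a monocyte array became 2 with a floor at the 75th percentile (log2 7.26), which Asb2 and Cela1 do not reach in monocytes, and without a floor this count has no value. With that floor the 20 strongly higher genes raised in Spic+ monocytes became 7. Under settings chosen after seeing the data they became 39 (of 270) at 8-fold and 11 (of 125) when raised meant 4-fold; a different limit explains both by construction. The class of 125 ranged from 98 to 136 over the fixed alternatives. Of genes differing 2-fold between the monocytes, 53.3% were higher in Spic+ monocytes, 42.4% with arrays centred on medians and 63.1% with cyclic loess. Between macrophages and Spic+ monocytes the share was 65.5%, 56.7% with quantile normalization again and 73.4% with arrays centred, which moved the median of all genes from 0.10 to 0.23. Of the list medians recomputed, 465 stayed within the spread between probe sets of a gene and 15 moved more, mostly with the higher floor, which leaves fewer genes. No paired analysis was possible because each group has 1 array. Differences among levels below the floor cannot be read.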

Other observations

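Other genes also stood high in macrophages and within 2-fold between the monocyte arrays. They were chosen after their values were seen, from the 102 genes of that class, and differences are from Spic- monocytes with levels below the floor set to the floor. The mannose receptor gene Mrc1 measured 6.30, 7.08 and 12.55, above the floor on every array, and was higher in macrophages by 6.24. Il10, an anti-inflammatory cytokine gene, was higher by at least 5.54, and the cytosolic retinal dehydrogenase gene Aldh1a1 by at least 3.87. Matrix genes in the class were the lubricin gene Prg4 (at least 4.27), the collagenase gene Mmp13 (at least 3.42) and the matrilin gene Matn2 (at least 2.44), all below the floor in both monocyte populations. Genes of other blood cells were there too, with the platelet chemokine gene Ppbp at 4.21 or more, the eosinophil granule gene Prg2 at 3.87 or more and the basophil protease gene Mcpt8 at 2.99 or more. Among the 20 genes raised in Spic+ monocytes, the growth factor gene Igf1 exceeded Spic- monocytes by 1.35 there and by 6.73 in macrophages.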
